A study of Mus musculus with 12 samples.

Results

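Chromosome 14 genes of mouse embryonic stem cells (ESCs) were followed across wild-type cells and Cdk8 mutant clones. The genes were chosen by their place on chromosome 14 and by a mean of at least 1 TPM, a share of the reads corrected for transcript length, in the 3 uninduced wild-type libraries. Of 25759 genes listed in the authors' tables, 1172 lie on chromosome 14 and 424 of these reached that level. Removing 9 genes by name, which were ribosomal proteins, complex I subunits and 6 single genes, left 415 genes, called members here. All 415 are protein coding, 201 are on the forward strand, and they span chr14:3049285-122984035 of GRCm38. The chromosome was picked because earlier results of these data had shown its ratio to wild type, so the ratios of mutant to wild-type libraries below are a description, and nothing is read from the count-based calls on that contrast given with them.

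The cells are HATX3 ESCs, derived from haploid cells, that carry a doxycycline-inducible Xist allele, so that adding doxycycline silences the X chromosome on which it lies. The 12 libraries are wild-type cells (replicates 1, 2 and 3) and ΔCdk8 clones 8, 11 and 15 with the genotype Cdk8-/-, each in uninduced conditions (0 h) and after 48 h of Xist expression. The clones were made with a pair of guide RNAs that remove a short stretch around the Cdk8 start codon, a small insertion was found in 1 of the clones, and each is a single clonal line, whereas the parental wild-type cells are polyclonal. All groups carry the inducible Xist system. Nothing in the descriptions says that the wild-type replicates were separate cultures, so p-values measure the spread between these samples only, and both libraries of a clone share that clone's history.

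Cdk8 is the kinase of the Mediator kinase module, which links transcription factors to RNA polymerase II. Chromosome 14 of the mouse carries genes of general housekeeping as well as tissue-restricted genes, and Xist acts on the X chromosome that carries it. Genes of a chromosome share no pathway. What they share is a DNA molecule, and ESC lines kept in culture are known to gain or lose whole chromosomes. DNA copy number was not measured in these libraries.

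The members had promoters close to those of other expressed genes in CG content. RefSeq promoters of GRCm38.p6, 250 bases before to 50 bases after a gene start, were matched by symbol for 298 of the 415 members. These held a median of 22 CG dinucleotides and 61.8% G or C, against 22 and 61.7% in 8559 promoters of genes of at least 1 TPM on the other autosomes. The medians were 13 and 56.3% in 17492 promoters of protein-coding genes and 7 and 52.7% in all 27025 promoters. A member's promoter was the one nearest its listed gene start, while the other sets took the first listed promoter of each symbol. Searched on both strands, GGGCGG stood in 65.1% of the members' promoters, in 67.7% of those of other expressed genes and in 35.9% of all. CCAAT stood in 37.6%, 39.5% and 37.9%, CACGTG in 10.4%, 10.7% and 7.24%, and TATAAA in 8.39%, 6.19% and 14.2%. To show members of different behaviour, 4 promoters are printed 5′ to 3′, with matches to these motifs in capitals (a match on the reverse strand reads as its complement). Rec8 (chr14:55617916-55618215, forward strand) and Phf11d (chr14:59365441-59365740, reverse strand) belong to members above wild type in every clone, Sall2 (chr14:52328621-52328920, reverse strand) to a member below wild type in clone 8, and Top2b (chr14:16364956-16365255, forward strand) to the member that passed the test on induction.
Rec8: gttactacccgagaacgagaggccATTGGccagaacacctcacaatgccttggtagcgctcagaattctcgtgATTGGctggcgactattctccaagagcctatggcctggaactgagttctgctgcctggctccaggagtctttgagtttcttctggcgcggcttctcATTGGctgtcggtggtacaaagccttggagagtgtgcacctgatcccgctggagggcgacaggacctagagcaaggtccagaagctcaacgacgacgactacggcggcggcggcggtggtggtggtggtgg
Phf11d: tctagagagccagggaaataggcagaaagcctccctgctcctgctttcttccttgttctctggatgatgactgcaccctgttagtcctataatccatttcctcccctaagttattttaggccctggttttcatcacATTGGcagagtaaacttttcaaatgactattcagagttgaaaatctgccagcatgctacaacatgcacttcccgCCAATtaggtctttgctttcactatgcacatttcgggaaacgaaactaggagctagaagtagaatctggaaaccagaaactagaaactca
Sall2: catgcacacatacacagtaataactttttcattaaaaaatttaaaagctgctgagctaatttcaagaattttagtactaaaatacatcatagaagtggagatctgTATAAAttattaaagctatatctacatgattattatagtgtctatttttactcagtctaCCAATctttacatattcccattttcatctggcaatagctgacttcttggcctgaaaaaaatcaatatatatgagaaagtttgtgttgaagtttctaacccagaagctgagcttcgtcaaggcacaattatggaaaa
Top2b: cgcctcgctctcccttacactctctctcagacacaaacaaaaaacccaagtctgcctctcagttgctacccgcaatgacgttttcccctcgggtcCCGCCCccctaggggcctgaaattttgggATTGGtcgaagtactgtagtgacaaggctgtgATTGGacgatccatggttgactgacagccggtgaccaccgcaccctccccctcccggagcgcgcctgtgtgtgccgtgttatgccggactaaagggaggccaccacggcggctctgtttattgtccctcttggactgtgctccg
Of these windows, Rec8 and Top2b held 18 CG dinucleotides each, Phf11d 3 and Sall2 1. CCAAT was found in all 4, with 3 matches in Rec8, 2 in Phf11d, 1 in Sall2 and 2 in Top2b, while GGGCGG was found in Top2b alone and TATAAA in Sall2 alone. A match is a string of letters and not a shown binding site.

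Library depth ran from 22170087 to 60798578 reads on genes, with the depths of wild-type and mutant libraries overlapping. All 9 ESC markers were at 1 TPM or more in all 12 libraries, with a summed level of 3984 to 7330 TPM in wild-type and 4822 to 7662 TPM in mutant libraries. Summed levels of 6 fibroblast markers were 5.70 to 17.6 TPM in wild-type and 17.8 to 32.4 TPM in mutant libraries, and 1 of the 6 reached 1 TPM in all 12. Those of 3 mesoderm markers were 1.37 to 4.13 and 4.58 to 14.4 TPM, and none of the 3 reached 1 TPM in all 12. No marker of these lists was at 0 throughout, and their part in the results was not tested. Summed levels of 5 primitive endoderm, 5 trophoblast and 4 neural markers overlapped between genotypes. In bulk RNA, fewer cells of a type and less RNA per cell cannot be told apart. Cdk8 itself was listed at 64.2, 69.4 and 74.2 TPM in the uninduced wild-type libraries and at 34.4, 56.8 and 85.3 TPM in uninduced clones 8, 11 and 15, and since the whole gene is counted while a short part is deleted, this does not check the labels. Wild-type replicate 1 stood apart from replicates 2 and 3 at many members, and the counts of members outside the wild-type range are given with and without it.

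Members were expressed at higher levels in all 3 mutant clones than in wild-type cells. The log2 ratio of each library's TPM to the mean of the uninduced wild-type libraries had a median over the members of 0.00, -0.01 and -0.01 in uninduced wild-type replicates 1, 2 and 3, and of 0.02, -0.09 and -0.10 after induction. In clone 8 the median was 0.60 uninduced and 0.54 induced, in clone 11 it was 0.54 and 0.55, and in clone 15 it was 0.78 and 0.75. These medians correspond to folds of 1.52, 1.45, 1.46, 1.46, 1.72 and 1.69, and no mutant library overlapped a wild-type one. The share of gene reads that fell on genes of chromosome 14 was 2.88% to 2.97% in wild-type and 4.12% to 4.43% in mutant libraries. The summed TPM of the members was 20466 to 20859 in wild-type and 28501 to 32147 in mutant libraries.

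The same ratio over the 10935 other autosomal genes of at least 1 TPM gave medians of 0.11 and 0.06 in clone 8, -0.04 and -0.03 in clone 11, and 0.18 and 0.15 in clone 15, uninduced and induced. Relative to these, the members stood higher by 0.49 and 0.48 in clone 8, by 0.58 and 0.58 in clone 11 and by 0.61 and 0.60 in clone 15, which are folds of 1.40, 1.39, 1.498, 1.49, 1.52 and 1.52. On this centred scale the clones lay closer together than on the TPM scale. In the wild-type libraries the members stood between -0.08 and 0.02 from the other autosomal genes. Ranked by median among the 19 autosomes, chromosome 14 was first in both libraries of clone 11 and second in both libraries of clones 8 and 15, and between 8th and 14th in wild-type libraries.

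Chromosome 3 was the one above it. The 530 genes of chromosome 3 at 1 TPM or more had medians of 0.64 and 0.56 in clone 8 and of 0.83 and 0.84 in clone 15, close to those of the members in the same libraries, but of -0.04 and -0.07 in clone 11. With chromosome 3 left aside, the highest other autosome reached 0.15 in uninduced clone 8 and 0.30 in induced clone 15. Chromosome 6 was the lowest autosome in clone 11, at -0.58 and -0.61. Chromosome 14 was thus the autosome whose median was over 0.5 in all 6 mutant libraries.

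**Figure D1:**
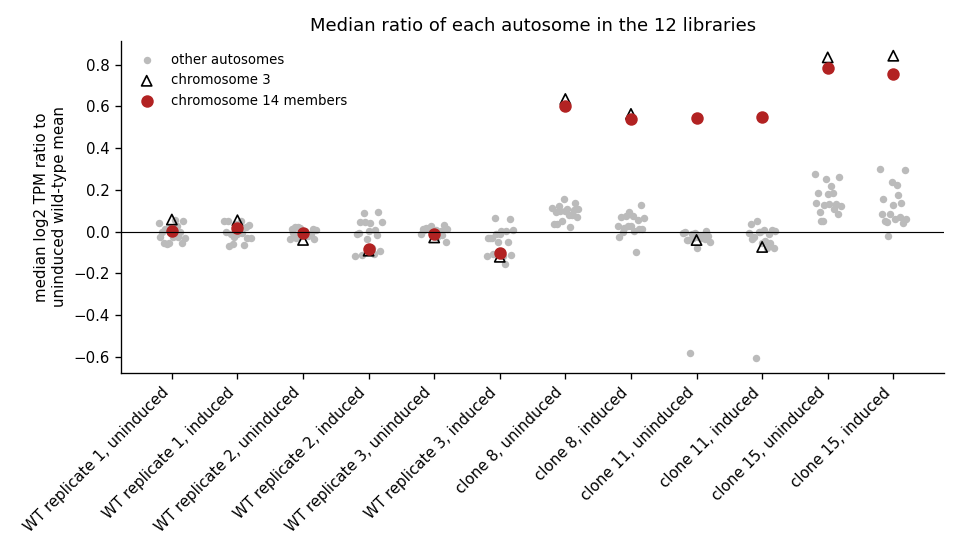
Median log2 TPM ratio of each of the 19 autosomes to the uninduced wild-type mean, in the 12 libraries along the x axis. Filled red circles are the chromosome 14 members, open triangles chromosome 3 and grey points the other autosomes; the red circles lie between 0.54 and 0.78 in the mutant libraries and between -0.10 and 0.02 in the wild-type libraries.

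Most members took part in this difference. The share of members above the uninduced wild-type mean was 40.0% to 51.6% in wild-type libraries and 76.1% to 88.9% in mutant libraries, where 44.97% to 61.5% of other autosomal genes were above it. A fold over 2 was seen at 111 and 110 members in clone 8, 64 and 66 in clone 11, and 150 and 166 in clone 15, uninduced and induced. These are 26.7% and 26.5%, 15.4% and 15.9%, and 36.1% and 40.0% of the members, where 12.1% and 13.4%, 4.06% and 5.72%, and 12.2% and 13.4% of other autosomal genes were over 2-fold. Clone 11 showed the narrowest spread of the clones, with an interquartile range of 0.33 to 0.78 uninduced, against 0.22 to 1.02 in clone 8 and 0.34 to 1.197 in clone 15. Other autosomal genes were closest to wild type in clone 11 too. With a clone's 2 libraries averaged, 58.9% of them lay between 0.8-fold and 1.25-fold in clone 11, 38.4% in clone 8 and 36.4% in clone 15. When the 2 libraries of a clone were averaged, 203 members (48.9%) lay between 1.25-fold and 1.75-fold of wild type in clone 11, where 13.2% of other autosomal genes did. In clone 8 the same interval held 120 members (28.9%; other autosomal genes 19.5%) and in clone 15 it held 111 (26.7%; 23.2%). Members under 0.8-fold numbered 41 in clone 8 (9.88%; other autosomal genes 24.9%), 23 in clone 11 (5.54%; 21.1%) and 29 in clone 15 (6.99%; 22.4%).

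**Figure D2:**
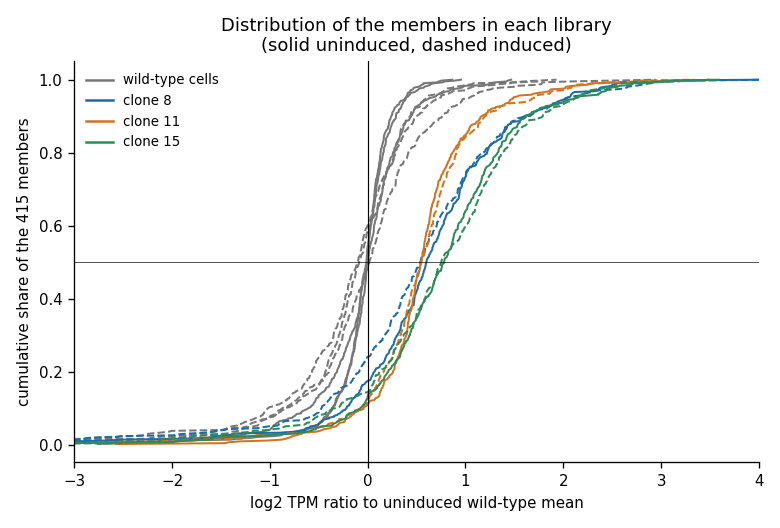
Cumulative share of the 415 members (y axis) against their log2 TPM ratio to the uninduced wild-type mean (x axis, drawn from -3 to 4), 1 line per library, solid when uninduced and dashed when induced. At the median the lines of the 3 clones lie to the right of the wild-type lines, between 0.54 and 0.78, while in the lower tail the induced clone 8 line crosses uninduced wild-type lines, and the lines of clone 11 are the steepest of the 3 clones.

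Counted against the range of the 6 wild-type libraries, 256 members (61.7%) had both libraries of clone 8 above it and 16 had both below. Over all autosomal genes at 1 TPM or more, the same rule called 29.6% above and 17.8% below in that clone. In clone 11 there were 255 members above (61.4%) and 2 below, where 13.1% and 13.8% of autosomal genes were called. In clone 15 there were 287 members above (69.2%) and 9 below, with 35.8% and 14.8% of autosomal genes. All 6 mutant libraries lay above all 6 wild-type libraries at 178 members (42.9%), against 6.22% of autosomal genes, and at no member did all 6 lie below, against 2.99%. Without wild-type replicate 1 the 6 mutant libraries lay above at 224 members, where 16% of autosomal genes were called, and below at 3 (0.723%), against 10.9%. Per clone, 273 members were then above in clone 8, 301 in clone 11 and 299 in clone 15, where 39.1%, 24.3% and 44.7% of autosomal genes were. These counts use the ratio that chose the chromosome and are read as a description.

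Besides the 178 members above wild type in 3 clones, 96 (23.1%) were above in 2 clones, 72 (17.3%) in 1 clone and 69 (16.6%) in none. The same patterns were held by 19.1%, 21.5% and 53.1% of autosomal genes at 1 TPM or more. Of the 96, 54 (13.01% of the members) were above in clones 8 and 15 but not in clone 11, against 16.1% of autosomal genes, and 35 members (8.43%) were above in clone 11 alone, against 3.85%. Fewer autosomal genes were called above in clone 11 than in the other clones, so these counts are a description. Without wild-type replicate 1, 69 members were above in 2 clones, 63 in 1 clone and 59 in none (20.7%, 18.7% and 44.6% of autosomal genes), with 29 above in clones 8 and 15 but not in clone 11 (16.7%) and 37 in clone 11 alone (4.34%). At 6 members the clones were split, above wild type in 1 or more clones and below it in another, namely Apex1, Dph3 and Ints6 (below in clone 8, above in clone 11), Tdh and Spry2 (above in clone 11, below in clone 15) and Camk2g (below in clone 11, above in clones 8 and 15). Such a split was seen at 1.45% of the members and 5.56% of autosomal genes, and without wild-type replicate 1 at 24 members (5.78%) and 9.32% of autosomal genes. Dph3 and Ints6 are named after their values were seen.

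Between uninduced mutant clones and uninduced wild-type cells, edgeR's quasi-likelihood test on read counts, fitted on 14646 genes, called 0 of 415 members and 0% of all genes, where a call needed a fold over 2 with an adjusted p below 0.01. An unadjusted p under 0.05 was reached by 213 members (51.3%) and by 20.4% of all genes tested. The members had a median log2 fold change of 0.52, against 0.03 over all genes. DESeq2 called 46 members, 45 higher and 1 lower in the clones, and 2.64% of all genes. This contrast overlaps the ratio that chose the chromosome, and nothing is read from it.

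The ratio was above 0 along nearly the whole chromosome. In windows of 10 Mb, the medians of the members were positive in all 13 windows in both libraries of clones 8 and 15 and in 12 of 13 in clone 11. Window medians of the wild-type libraries ran from -0.86 to 0.17. The other autosomal genes also had medians above 0 in clones 8 and 15, at 0.06 to 0.18, so a positive sign alone says less there. The window with the most members, 50 to 60 Mb with 100 members, had 0.50 and 0.52 in clone 8, 0.62 and 0.67 in clone 11 and 0.66 and 0.61 in clone 15, and between -0.06 and 0.17 in wild-type libraries. At 40 to 50 Mb, with 29 members, the medians were 0.84 and 0.77 in clone 8, 0.54 and 0.49 in clone 11 and 1.196 and 1.23 in clone 15. Toward the end of the chromosome, at 120 to 130 Mb with 13 members, they were 0.74 and 0.69, 0.56 and 0.62, and 0.41 and 0.50. Windows from 80 to 120 Mb held 2 to 12 members each.

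The exception was the first window. From 0 to 10 Mb the 28 members had medians of -0.12 and -0.04 in clone 11, 0.45 and 0.29 in clone 8 and 1.18 and 1.21 in clone 15, and wild-type libraries ranged from -0.86 to 0.12. There, 18 of the 28 members are predicted genes with names of Gm and a number, and at 20 of them under 90% of reads mapped to a single place, so their values are uncertain. Gm2897, the first member, at chr14:3049285-3076840 with 36.4% unique reads, was at 1.46, 4.18 and 3.45 TPM in uninduced and 1.22, 0.344 and 0.873 TPM in induced wild-type cells, and at 2.22, 2.16 and 3.88 TPM in uninduced and 1.62, 2.02 and 3.63 TPM in induced clones 8, 11 and 15. The induced wild-type libraries were the lowest, and the uninduced wild-type libraries overlapped those of the clones. Tmtc4, the last member, at chr14:122918971-122984035 with 100% unique reads, was at 4.70, 4.14 and 3.47 TPM and 6.52, 5.33 and 5.17 TPM in the wild-type cells, and at 11.1, 6.04 and 6.94 TPM and 13.4, 8.21 and 10.9 TPM in the clones. Both libraries of clones 8 and 15 were above all wild-type libraries at Tmtc4, and clone 11 overlapped them. Over the 363 members with at least 90% unique reads, the 6 mutant medians were 0.55 to 0.78, and over the other 52 they were 0.08 to 0.90. Over the 22 members named Gm and a number, the medians were 0.11 and -0.11 in clone 8, -0.22 and -0.19 in clone 11 and 1.03 and 1.03 in clone 15, uninduced and induced, against -0.86 to 0.26 in wild-type libraries.

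Within the chromosome the clones had different profiles, and wild-type libraries also differed from each other. Along runs of 25 neighbouring members, all 391 runs had a median above 0 in clones 8 and 15 and 389 did in clone 11. Between 90 and 240 of the 391 runs did in the wild-type libraries. Clone 8 was highest at 1.35 in both libraries, over members with starts from 69241848 to 70766036, and clone 11 was highest at 0.88 and 0.94, over members with starts from 67752135 to 70583296. Clone 15 was highest at 1.34 uninduced and 1.44 induced, in runs with starts between 33214026 and 47367751. Runs of the wild-type libraries spanned -0.96 to 0.42. Induced clone 15 was highest over starts from 33214026 to 47153895. Over the same run uninduced wild-type replicate 1 had its highest median, 0.31, and uninduced replicate 2 its lowest, -0.21. The lowest runs of clone 8 reached 0.07 and 0.04, and those of clone 15 reached 0.23 and 0.12. Neighbouring runs share members, so these are extremes of a smoothed line and no test was made of them.

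**Figure D3:**
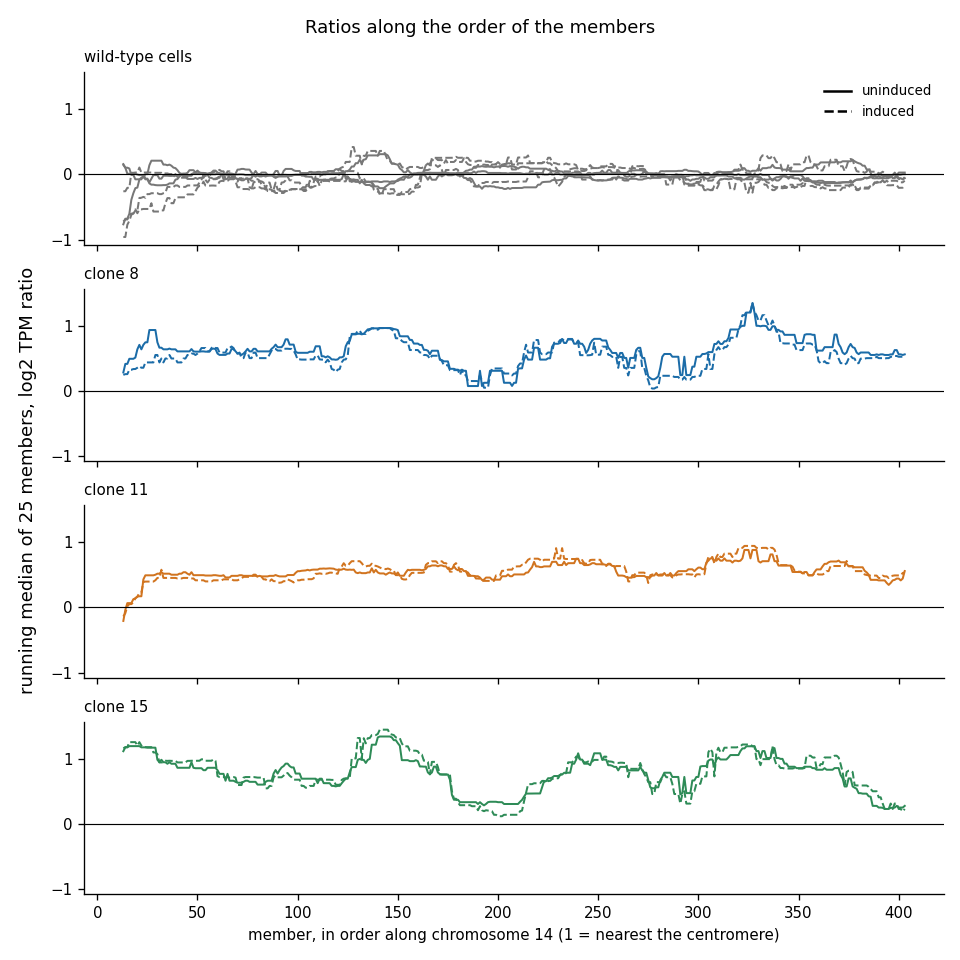
Running median over 25 members of the log2 TPM ratio to the uninduced wild-type mean (y axis) against the order of the 415 members along the chromosome (x axis), in 4 panels for wild-type cells and clones 8, 11 and 15, solid when uninduced and dashed when induced. Both lines of a clone follow each other and lie above 0 except at the start of clone 11, and wild-type lines lie around 0, with lower values at the start in replicate 1 and in the induced libraries.

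The ratio was above 0 at each level of expression, gene length and strand examined. With the members cut into tertiles by mean TPM over all 12 libraries, the 6 mutant medians were 0.49 to 0.58 in the highest, 0.58 to 0.93 in the middle and 0.39 to 0.96 in the lowest tertile. The clones thus lay closest together among the highly expressed members. Wild-type libraries also spanned less there, at -0.08 to 0.03, than in the lowest tertile, at -0.20 to 0.11. By gene length the medians were 0.51 to 0.66 in the shortest, 0.49 to 0.89 in the middle and 0.52 to 0.92 in the longest tertile. Members of the forward strand had 0.55 to 0.77 and those of the reverse strand 0.50 to 0.78. Reads on introns, which come mostly from unspliced RNA, gave the same picture over 384 members with enough of them, with medians of 0.70 and 0.68 in clone 8, 0.57 and 0.53 in clone 11 and 0.69 and 0.80 in clone 15, against -0.13 to 0.07 in wild-type libraries. Relative to 9828 other autosomal genes these are higher by 0.52 to 0.64.

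The most highly expressed members had modest ratios. Tpt1 (chr14:75845093-75848525), the translationally controlled tumour protein, was at 3084, 3233 and 3452 TPM in uninduced and 3187, 3167 and 3265 TPM in induced wild-type replicates 1, 2 and 3. It was at 3792, 4537 and 5071 TPM in uninduced and 4048, 4585 and 5621 TPM in induced clones 8, 11 and 15, above wild type in all 6, with a fold of means of 1.43. Ipo5 (chr14:120911224-120947999), an importin that carries proteins into the nucleus, was at 548, 544 and 562 TPM uninduced and 436, 453 and 478 TPM induced in wild type. In the clones it was at 745, 835 and 608 TPM and at 647, 766 and 570 TPM, again above wild type in all 6, with a fold of 1.38. Psmb5 (chr14:54614119-54618022), a catalytic subunit of the proteasome, was at 379, 452 and 456 TPM and 396, 514 and 535 TPM in wild type, and at 625, 609 and 530 TPM and 701, 664 and 491 TPM in the clones. Clones 8 and 11 were above wild type at Psmb5 and clone 15 overlapped it.

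Hnrnpc and Prmt5 did not share the difference. Hnrnpc (chr14:52073377-52104028), which binds nascent RNA, was at 454, 498 and 480 TPM and 457, 418 and 403 TPM in wild-type cells and at 447, 537 and 505 TPM and 437, 496 and 552 TPM in the clones, a fold of 1.10, with clone 15 alone above wild type. Prmt5 (chr14:54507187-54517525), an arginine methyltransferase, was at 346, 338 and 370 TPM and 321, 332 and 344 TPM in wild-type cells and at 335, 390 and 358 TPM and 364, 330 and 367 TPM in the clones. Its fold of means was 1.05 and all clones overlapped wild type. Apex1 (chr14:50924968-50927139), the main endonuclease of base excision repair, divided the clones. It was at 387, 525 and 485 TPM and 437, 599 and 556 TPM in wild type, at 367 and 306 TPM in clone 8, 832 and 823 TPM in clone 11 and 450 and 384 TPM in clone 15, so that clone 8 was below and clone 11 above wild type.

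Members above wild type in every clone were ranked by ratio only where their mean was at least 5 TPM in uninduced wild-type cells. Among these the largest ratios were those of Fam213a, Clu, Phf11d, Piwil2 and Rec8. Fam213a (chr14:40993740-41013788), a peroxiredoxin-like protein, was at 7.98, 5.41 and 6.17 TPM uninduced and 10.8, 4.16 and 4.85 TPM induced in wild-type cells. In clones 8, 11 and 15 it was at 38.1, 23.9 and 49.9 TPM uninduced and 49.5, 28.2 and 58.4 TPM induced, a fold of means of 6.30. Clu (chr14:65968483-65981547), the secreted chaperone clusterin, was at 15.2, 5.77 and 7.04 TPM and 16.8, 2.15 and 3.46 TPM in wild type and at 47.1, 43.6 and 50.4 TPM and 58.5, 40.0 and 50.1 TPM in the clones, a fold of 5.74. Wild-type replicate 1 was the highest of the wild-type libraries in both conditions at Fam213a and Clu. Without it the mean log2 ratio of Clu over the 6 mutant libraries was 2.90 in place of 2.36.

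Of these 5 named members, Piwil2 and Rec8 act in germ cells. Piwil2 (chr14:70372477-70429383), a PIWI protein that binds small RNAs in the germ line, was at 11.4, 5.33 and 5.86 TPM and 13.3, 4.72 and 5.86 TPM in wild-type cells and at 25.9, 36.4 and 28.8 TPM and 28.9, 39.6 and 33.8 TPM in the clones, a fold of 4.16. Rec8 (chr14:55618037-55625395), a cohesin subunit of meiosis, was at 6.23, 8.94 and 8.05 TPM and 10.3, 8.62 and 9.88 TPM in wild-type cells and at 28.6, 18.2 and 34.4 TPM and 37.9, 25.4 and 36.4 TPM in the clones, a fold of 3.48. Phf11d (chr14:59347407-59365470), a PHD finger protein, was at 16.7, 20.2 and 3.94 TPM and 11.3, 15.7 and 4.75 TPM in wild-type cells, where replicate 3 was the low one, and at 76.9, 55.5 and 65.2 TPM and 55.4, 44.2 and 59.3 TPM in the clones, a fold of 4.91. The promoters of Rec8 and Phf11d printed above differ in CG content.

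Members lower in the clones were few, and at some of them wild-type replicate 1 was itself low. Sall2 (chr14:52311172-52328762), a zinc finger transcription factor, was at 3.87, 27.4 and 33.7 TPM uninduced and 4.88, 19.3 and 24.6 TPM induced in wild-type replicates 1, 2 and 3. In the clones it was at 2.68, 7.87 and 5.44 TPM and 2.68, 5.98 and 3.88 TPM, so clone 8 was below all wild-type libraries and clone 15 overlapped replicate 1. Clone 11 lay between replicate 1 and replicates 2 and 3. Zic5 (chr14:122456795-122465677), another zinc finger factor, was at 21.1, 41.4 and 43.0 TPM and 14.2, 30.5 and 27.6 TPM in wild type. In the clones it was at 12.9, 19.7 and 15.2 TPM and 9.97, 15.4 and 14.3 TPM, with clone 8 below. Clones 11 and 15 overlapped wild type at Zic5 through replicate 1 alone. Jph4 (chr14:55106826-55116935), a junctophilin that ties membranes together, was at 3.15, 6.62 and 8.67 TPM and 1.32, 3.06 and 2.44 TPM in wild type, at 0.571 and 0.650 TPM in clone 8, 6.84 and 5.31 TPM in clone 11 and 2.23 and 1.61 TPM in clone 15. Clone 8 was below wild type at Jph4 and the other clones overlapped it.

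Some members separated clone 11 from clones 8 and 15. Enox1 (chr14:77156763-77721760) was at 40.0, 64.2 and 37.9 TPM and 33.6, 76.8 and 60.8 TPM in wild type, at 15.8 and 6.39 TPM in clone 8, 81.4 and 62.1 TPM in clone 11 and 15.3 and 10.9 TPM in clone 15. Spry2 (chr14:105891947-105896819), an inhibitor of growth factor signalling, was at 112, 165 and 135 TPM and 111, 154 and 126 TPM in wild type, at 126 and 122 TPM in clone 8, 226 and 241 TPM in clone 11 and 97.5 and 94.2 TPM in clone 15. Clone 11 was thus above and clone 15 below wild type at Spry2. Tdh (chr14:63492347-63509092), the threonine dehydrogenase used by mouse ESCs, was at 175, 317 and 196 TPM and 253, 585 and 482 TPM in wild type, at 205 and 238 TPM in clone 8, 638 and 781 TPM in clone 11 and 112 and 148 TPM in clone 15. Ephx2 (chr14:66084374-66124500), the soluble epoxide hydrolase, was at 6.06 to 12.9 TPM in the 6 wild-type libraries, at 31.7 and 33.0 TPM in clone 11, and at 5.53 to 9.41 TPM in clones 8 and 15. Rap2a (chr14:120478444-120507194), a small GTPase, was below wild type in clones 8 and 15, at 5.12 to 7.57 TPM against 7.90 to 13.6 TPM, and overlapped it in clone 11 at 10.5 and 12.4 TPM. Camk2g (chr14:20734875-20794088), a calcium-dependent kinase, ran the other way, with 31.7 to 40.2 TPM in clones 8 and 15, 16.5 and 17.0 TPM in clone 11 and 18.3 to 25.8 TPM in wild type. Gm3839 (chr14:11280735-11356726), with 27.4% unique reads, was the other member named below wild type in clone 11, at 19.8 and 23.2 TPM against 24.4 to 47.1 TPM.

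**Figure D4:**
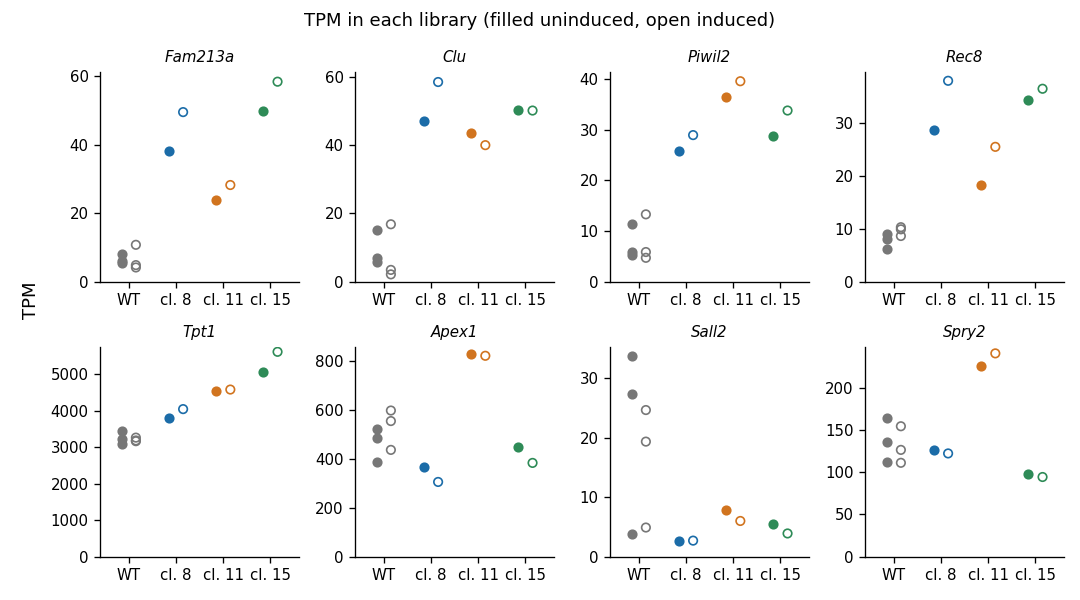
TPM of 8 members in every library (y axis from 0), by wild-type cells (WT) and clones 8, 11 and 15 (x axis), filled when uninduced and open when induced. Fam213a, Clu, Piwil2, Rec8 and Tpt1 lie above all wild-type points in each clone, Apex1 and Spry2 are highest in clone 11, and at Sall2 wild-type replicate 1 lies near the clones.

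Members were also grouped by what their products do, and a group is described by its count above wild type in all clones and by the median of its members' mean log2 ratio over the 6 mutant libraries, beside 178 of 415 and 0.61 for all members. Cell cycle, mitosis and cohesin genes numbered 18, of which 10 were above in all clones, with a median of 0.83. Cdkn3, a phosphatase that acts on cyclin-dependent kinases, was at 2.77 to 6.05 TPM in wild-type libraries, 17.1 and 11.3 TPM in clone 8, 9.01 and 8.58 TPM in clone 11 and 29.4 and 23.1 TPM in clone 15. Esco2, the cohesin acetyltransferase, was the most expressed and the lowest of the group by ratio, at 127 to 211 TPM in wild type and 103 to 186 TPM in the clones. Of 25 secretory pathway genes, 19 were above in all clones, with a median of 0.79. Reep4, which keeps endoplasmic reticulum away from mitotic chromosomes, was at 16.9 to 28.2 TPM in wild type and 58.7 to 102 TPM in the clones, and Arf4, a small GTPase of the Golgi, at 86.9 to 150 TPM and 166 to 274 TPM. Uggt2, which checks the folding of glycoproteins, was at 0.980 to 3.36 TPM and 1.56 to 3.16 TPM.

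Mitochondrial and metabolic genes numbered 32, with 17 above in all clones and a median of 0.72. Micu2, a regulator of mitochondrial calcium uptake, was at 6.61 to 10.4 TPM in wild type and 13.2 to 41.7 TPM in the clones. Tkt, the transketolase of the pentose phosphate pathway, was at 246 to 443 TPM in wild type, and at 503 and 427 TPM in clone 15 it overlapped wild type while clones 8 and 11 were above, at 583 to 747 TPM. Comtd1 was at 2.47 to 14.6 TPM and 3.08 to 10.8 TPM. Of 12 DNA repair and telomere genes, 6 were above in all clones, with a median of 0.66. Parp4, a poly(ADP-ribose) polymerase, was at 1.97 to 5.32 TPM in wild type and 3.84 to 13.6 TPM in the clones, while Pinx1, an inhibitor of telomerase, was above in clone 11 alone, at 86.8 and 73.4 TPM against 38.7 to 66.3 TPM. Development and signalling genes numbered 23, with 8 above in all clones and a median of 0.61. In that group Clu had the largest ratio, Zic5 the smallest and Spry2 the highest TPM.

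Lower medians were seen in 3 groups. Of 17 proteasome and ubiquitin genes, 8 were above in all clones, with a median of 0.52. Usp54, a ubiquitin-specific protease family member, was at 9.89 to 13.9 TPM in wild type and 17.8 to 31.1 TPM in the clones, and Trim13, a ubiquitin ligase, at 64.4 to 126 TPM and 69.8 to 108 TPM. Of 24 chromatin and transcription regulators, 11 were above in all clones, with a median of 0.46. Kat6b, a histone acetyltransferase, was at 23.6 to 55.9 TPM in wild type and 53.3 to 80.8 TPM in the clones, overlapping in uninduced clone 15. Of 27 genes listed under RNA processing, tRNA and nuclear transport, 15 were above in all clones, with a median of 0.38. The list counts Tpt1, the translationally controlled tumour protein, whose name places it in none of these functions and which was among the 15. Mbnl2, a splicing regulator, was at 3.61 to 23.4 TPM in wild type, highest in replicate 1, and at 17.8 to 39.1 TPM in the clones, while Acin1, a component of splicing complexes, was at 96.8 to 179 TPM and 114 to 142 TPM. The medians of the 6 mutant libraries were above 0 in all 8 groups. The groups share the chromosome and were written with earlier results known, so a difference between their medians was not tested.

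**Figure D5:**
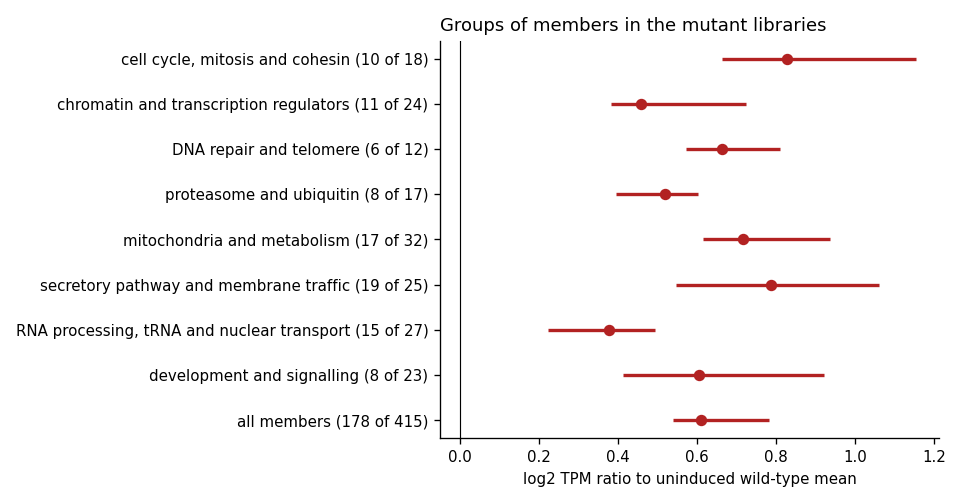
Median over the members of each functional group of the mean log2 TPM ratio to the uninduced wild-type mean in the 6 mutant libraries (points), with the lowest and highest median in a single mutant library (lines); brackets give members above all wild-type libraries in all clones, of how many. All lines lie above 0, from 0.22 for RNA processing to 1.16 for the cell cycle.

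Genes on both sides of the limit of 1 TPM were compared. Il3ra, a receptor chain, with a mean of 1.02 TPM in uninduced wild-type cells, and Fhit, a hydrolase, with 1.03 TPM, were just inside, with medians of 3.597 and 1.91 TPM over the 6 mutant libraries. Just outside, Ldb3 had 0.978 TPM with a median of 1.01 TPM in the mutant libraries, and Nudt18, a nucleotide hydrolase, had 0.947 TPM with 5.19 TPM. Among the remaining members named for a single clone, 4930452B06Rik was at 3.43 to 9.76 TPM in wild type, 24.8 and 19.4 TPM in clone 8, 11.8 and 9.90 TPM in clone 11 and 32.3 and 27.9 TPM in clone 15. Rgcc, a regulator of the cell cycle, was at 2.32 to 26.3 TPM in wild type and at 32.6 and 54.2 TPM in clone 8, and overlapped wild type in the other clones.

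The members' median change on induction of Xist lay between -0.07 and 0.03 on the log2 scale in the 3 wild-type replicates and 3 clones. This comparison sets induced against uninduced libraries and is not independent of the rule. The ratios of the rule include induced libraries, and the limit of 1 TPM was set in the uninduced wild-type libraries. A member can pass that limit through 1 library, as Stc1 did at 6.48, 0.476 and 0.315 TPM in replicates 1, 2 and 3. Such members favour falls on induction in wild-type cells. The median log2 ratio of induced to uninduced TPM over the members was 0.03, -0.04 and -0.07 in wild-type replicates 1, 2 and 3 and -0.07, 0.00 and 0.01 in clones 8, 11 and 15. The mean was -0.026±0.053 in wild-type cells and -0.022±0.046 in the clones (s.d., n = 3 each), a difference of 0.00 (exact permutation test, two-sided, p = 1, with 0.1 the smallest p that 3 against 3 samples allow).

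Top2b was the member that passed the test on induction in wild-type cells. In edgeR's fit of 14006 genes, 1.16% were called by the same thresholds, and 1 of 414 members was. Top2b (chr14:16365179-16435462), a DNA topoisomerase, was at 15.6, 16.8 and 15.7 TPM uninduced and 8.04, 8.30 and 7.11 TPM induced in wild-type replicates 1, 2 and 3, without overlap. It fell by 1.00±0.11 (s.e.) on the log2 scale with an edgeR adjusted p of 0.00541, at the edge of the fold change minimum. In clones 8, 11 and 15 it was at 21.2, 13.03 and 28.95 TPM uninduced and 13.2, 8.72 and 20.3 TPM induced, lower in 3 of 3 clones, with a log2 change of -0.55±0.31 and an edgeR adjusted p of 1. Since libraries of the same number deviated together, the replicate number was also fitted as a block. In that blocked fit the clones' change was -0.56±0.08 with an edgeR adjusted p of 4.16e-05, under the fold change minimum.

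With the block, 11 of 414 members passed in wild-type cells, 4 up and 7 down, where 3.95% of all genes were called. DESeq2 without a block called 9 members, and 4.73% of all genes. Of the 11, named after their values were seen, Anxa8, Dzip1, Tgm1 and Zfhx2 were up and Gm3591, Jph4, Loxl2, Rnf219, Slain1, Tbc1d4 and Top2b were down. Anxa8, a calcium-dependent phospholipid binding protein, went from 5.05, 2.81 and 6.08 TPM to 26.6, 15.5 and 17.7 TPM, and rose by 2.15±0.21 on the log2 scale (edgeR adjusted p of 0.00287 with the block). In uninduced clones 8, 11 and 15 Anxa8 was at 0.166, 6.73 and 0.297 TPM. Slain1, which binds the ends of microtubules, went from 6.99, 11.7 and 11.5 TPM to 4.15, 4.80 and 3.58 TPM and fell by 1.24±0.17 (edgeR adjusted p of 0.00775 with the block). Gm3591 had 23.4% unique reads, so its value is uncertain. Leaving out wild-type replicate 1 gave 9 members called without the block, with 3.99% of all genes, and leaving out replicate 2 or 3 gave 0 members and 0% of all genes.

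In the mutant clones edgeR called 0 of 414 members on induction and 0% of 14832 genes, with 3 members (0.725%) and 2.64% of all genes at an unadjusted p under 0.05, and DESeq2 called 1 member, Stc1, and 0.243% of genes. With the clone as a block 4 members passed, all down, where 1.4% of all genes were called. Stc1 (chr14:69029238-69041804), a secreted glycoprotein, was at 2.33, 6.01 and 4.48 TPM in uninduced and 0.0406, 0.331 and 0.571 TPM in induced clones 8, 11 and 15. It fell by 3.94±0.30 on the log2 scale (edgeR adjusted p of 5.11e-08 with the block). In wild-type cells Stc1 was at 6.48, 0.476 and 0.315 TPM uninduced and 0.0929, 0.108 and 0.0710 TPM induced, a change of -3.98±0.91 (edgeR adjusted p of 0.0300 with the block) that did not reach the threshold. Loxl2, a lysyl oxidase that cross-links collagen, went from 8.66, 9.85 and 27.0 TPM to 1.89, 4.34 and 12.5 TPM in the clones, by -1.45±0.15 (edgeR adjusted p of 1.46e-06 with the block). Loxl2 was among the members down in wild-type cells too, by -1.49±0.18 (edgeR adjusted p of 0.00512 with the block). The other members of the 4 were Duxbl2 and Gm45521, each low in TPM, and Duxbl2 had 0% unique reads.

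The interaction of genotype and induction, fitted on 15137 genes over all 12 libraries, called 0 of 415 members and 0% of genes, with 10 members (2.41%) and 3.88% of all genes at an unadjusted p under 0.05, and DESeq2 called 0 members and 0.218% of genes. The member with the smallest p was Dlg5 (chr14:24133953-24245920), a scaffold protein of cell junctions, at 18.4, 19.5 and 21.3 TPM uninduced and 30.0, 33.1 and 36.5 TPM induced in wild-type cells and at 27.4, 23.6 and 27.9 TPM and 25.9, 26.5 and 27.9 TPM in the clones. Its interaction was -0.71±0.18 with an edgeR adjusted p of 0.507. With the block, 2 members passed where 0.998% of genes were called, Tgm1 (chr14:55700009-55713926), the transglutaminase of keratinocytes, and Tbc1d4 (chr14:101442360-101609191), a regulator of Rab GTPases. Tgm1 went from 12.1, 12.2 and 14.2 TPM to 24.9, 38.8 and 43.0 TPM in wild-type cells, and from 12.3, 45.2 and 21.6 TPM to 14.6, 51.3 and 18.1 TPM in clones 8, 11 and 15. Tbc1d4 went from 2.65, 3.16 and 3.997 TPM to 1.43, 1.245 and 1.81 TPM in wild-type cells and from 1.26, 3.14 and 2.52 TPM to 1.74, 2.94 and 2.71 TPM in the clones. The wild-type libraries of each of these genes separated by induction and those of the clones overlapped.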

How the data were processed

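PolyA RNA of 12 libraries was sequenced by the authors with a stranded kit and aligned to GRCm38 in the CLC Genomics Workbench. The authors deposited 1 table of 25759 genes per library, with raw read counts on genes, exons and introns and with TPM values. The RPKM values and ratio columns were not used here. Groups and replicate or clone numbers were taken from the sample titles. Members and gene lists were chosen with earlier results of these data known.

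Log2 TPM ratios to the mean of the 3 uninduced wild-type libraries were computed without a pseudocount in Python 3.11.15 (numpy 2.4.6, pandas 2.3.3, scipy 1.17.1, matplotlib 3.10.9). A TPM of 0, which 4 members had in at least 1 library, was ranked lowest. Intron ratios used each gene's share of all intron reads, for genes with a mean of at least 10 such reads. Counts on genes were tested over all genes in R 4.3.3 with edgeR 4.0.16 (TMM, quasi-likelihood F test, filterByExpr keeping genes from 10 counts and 15 in total). A call needed a fold over 2 and a Benjamini-Hochberg adjusted p below 0.01, with DESeq2 1.42.0 as an alternative. The steps were tested on simulated data. Depth was 22170087 to 60798578 reads per library.

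Replicate or clone numbers come from the titles. Deviations of same-numbered libraries from their group means correlated across genes at 0.487 to 0.640 in wild-type cells and 0.759 to 0.853 in the clones. The numbers were taken to pair the libraries. Libraries of unlike number were not compared, so these values do not show that the wild-type libraries are paired. The results with the block rest on that pairing.

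Named members were the extremes by ratio in each clone and in all clones, the highest TPM, the extremes and highest TPM of each list, members past a threshold on induction or with the smallest p, the first and last member, and genes next to the limit of 1 TPM. Alternatives were other size factors, filters, exon reads, intron reads, a mean TPM of at least 5, centring on the other autosomes, all 12 libraries in 1 fit, the replicate block and leaving out each replicate. Limiting to members with at least 90% unique reads, alternatives for single members, and counts of clones per member without wild-type replicate 1 were added after seeing the data.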

Additional observations from a re-analysis of the deposited data

Results flagged for a closer look

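The members Tgm1 and Tbc1d4 are listed here because induction changed them differently in the 2 genotypes, in edgeR's fit with the replicate number as a block. Tgm1 had an interaction of -1.361 on the log2 scale (edgeR adjusted p of 0.00671), higher on induction in 3 of 3 wild-type replicates and in 2 of 3 clones. Tbc1d4 had an interaction of 1.367 (edgeR adjusted p of 0.00776), lower on induction in 3 of 3 wild-type replicates and in 1 of 3 clones. Without the block the adjusted p of both was 1.00. Groups of 3 samples were not searched for single samples that lie apart.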

How the results depend on the processing

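The medians of the members stayed above 0 in every mutant library under every alternative run. Reads on introns gave 0.680 in induced clone 8 in place of 0.539, and subtracting the median of the other autosomes gave 0.605 and 0.603 in clone 15. Members with both libraries of a clone below wild type numbered 38 in clone 8, 9 in clone 11 and 33 in clone 15 without wild-type replicate 1, where 27.0%, 25.4% and 24.9% of autosomal genes were below, in place of 17.8%, 13.8% and 14.8% with it. Leaving out a single wild-type replicate gave 17 to 38, 2 to 9 and 9 to 33. In clone 15 they numbered 15 after centring and 5 at a mean TPM of at least 5, with 23.6% and 17.0% of autosomal genes below.

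On induction in wild-type cells the 1 member called became 11 with the replicate block, 9 with DESeq2, 10 by an adjusted p below 0.05 at any fold change (4.56% of all genes), 0 with all 12 libraries in 1 fit (1.45%), and 0 to 9 when 1 replicate was left out (0% to 3.99%). In the clones the 0 members became 4 with the block and 1 with DESeq2. The interaction gave 2 with the block. Between uninduced genotypes, DESeq2 called 46 and the fit of all 12 libraries 1, Plac9b. The block was not fitted there because wild-type and clone numbers do not match. The difference in median induction change, 0.00409, was -0.00288 at a mean TPM of at least 5 and -0.0186 to 0.0329 when a replicate was left out, with p of 0.8 or more wherever its sign turned. The cause of these shifts was not tested.

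Without wild-type replicate 1, the mean log2 ratio over the 6 mutant libraries was 1.16 at Stc1 in place of -1.45, 2.97 at Rgcc in place of 1.45, 2.69 at Mbnl2 in place of 1.74, and -0.32 at Uggt2 in place of 0.04. With 3 clones, each a single line, the tests see large changes best; DNA copy number was not tested.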
